A study of Homo sapiens with 4 samples.

Results

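The genes described here make, move, sense and remove adenosine, a nucleoside that cells release and that acts as a signal outside them. They are 10 of the 17687 genes named on the array: the enzymes NT5E (CD73), ENTPD1, ADA and ADK, the receptors ADORA1, ADORA2A and ADORA2B, and the equilibrative nucleoside transporters SLC29A1, SLC29A2 and SLC29A4. They were chosen by symbol after NT5E had been seen to be higher with a microRNA mimic, so their differences between mimic and control are given as a description, without a test. Each of the 10 had 1 probe set, and all 10 had a mean over the arrays above the limit used for testing (4.90, the 30th percentile of named genes).

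RNA came from cultures of Li-7 and HEP-G2, both established human liver cancer lines. One group of each line received a synthetic miR-4730 mimic by lipid transfection (3 nM, 24 h after seeding) and the other the negative control #1 oligonucleotide, whose dose the labels do not give separately. Each of the 4 groups had 1 array of biotin-labelled cRNA and no replicate. Li-7 grew in RPMI-1640 and HEP-G2 in DMEM, both with serum, so line and medium cannot be told apart.

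Adenosine outside cells comes mainly from released ATP. ENTPD1 trims ATP and ADP to AMP, and NT5E, anchored at the cell surface, takes the phosphate off AMP to leave adenosine. ADORA1 couples to inhibitory G proteins and lowers cAMP, whereas ADORA2A and ADORA2B couple to stimulatory ones and raise it. Transporters of the SLC29 family carry adenosine across membranes, after which ADK phosphorylates it back to AMP or ADA converts it to inosine. In tumours this pathway is known for damping immune cells.

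The agent given to the cells is shown first, since every comparison with the mimic rests on it. The mature microRNA in the RefSeq table lies on the plus strand at chr17:80419427-80419449 (GRCh38.p14). Capitals mark its seed, bases 2 to 8, the stretch by which a microRNA mainly recognises its targets.
hsa-miR-4730: cUGGCGGAgcccauuccaugcca
Among 2370 mature names in that table, 1 carried this seed, miR-4730 itself.

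HMGA1, a chromatin protein that the series title names as the target, was lower with the mimic in both lines, with log2 differences of -4.02 for Li-7 and -3.17 for HEP-G2 (mean -3.59, SE 0.29, limma's adjusted p = 0.0241). The brightness that 5% of the 612 negative control probe sets exceed, used here as a background line, lay at 8.72 (control) and 7.99 (mimic) in Li-7 and at 8.35 (control) and 8.20 (mimic) in HEP-G2. Of 11 hepatocyte markers measured, 11 lay above it on both HEP-G2 arrays. In Li-7, 11 of 11 lay under it on the control array and 9 of 11 on the mimic array, the exceptions being APOH and SERPINA1. The line is called Li-7 as labelled, its identity was not tested here, and this bears on every value set between the lines. Of 4 simple epithelium markers, 4 lay above the background line on both Li-7 arrays. In HEP-G2, 3 of 4 lay above it on both arrays, the keratins KRT8 and KRT18 among them. CDH1 lay under it there, at 6.77 (control) and 7.44 (mimic). On every array, 0 of 4 endothelial markers and 1 of 5 blood markers (CD68) lay above it.

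NT5E had the largest difference of the 10 genes in Li-7 and the highest in HEP-G2. Its value was 13.13 on the Li-7 control array and 15.78 on the Li-7 mimic array. HEP-G2 read 13.12 with the control and 15.15 with the mimic. Both mimic arrays were thus above both control arrays, and the controls of the lines lay within 0.01 of each other. The difference came to 2.65 in Li-7, or 6.29-fold on the deposited scale, while HEP-G2 differed by 2.03, or 4.08-fold. Counted from the highest difference among 12381 genes, NT5E had rank 2 in Li-7 and rank 50 in HEP-G2. None of the negative control probe sets was brighter than NT5E on any array (0%). Each array reads the RNA of a whole culture, so more NT5E RNA per cell and more cells that carry it cannot be told apart. NT5E is also used as a marker of stromal cells. The summed log2 value of 5 stromal markers was 31.0 (control) and 33.1 (mimic) in Li-7 and 27.4 (control) and 27.5 (mimic) in HEP-G2, and their part in the NT5E difference was not tested. Above background were COL1A2 and LUM on both Li-7 arrays (2 of 5) and COL1A2 on both HEP-G2 arrays (1 of 5), while COL1A1, PDGFRB and DCN lay under it on all 4.

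**Figure D1:**
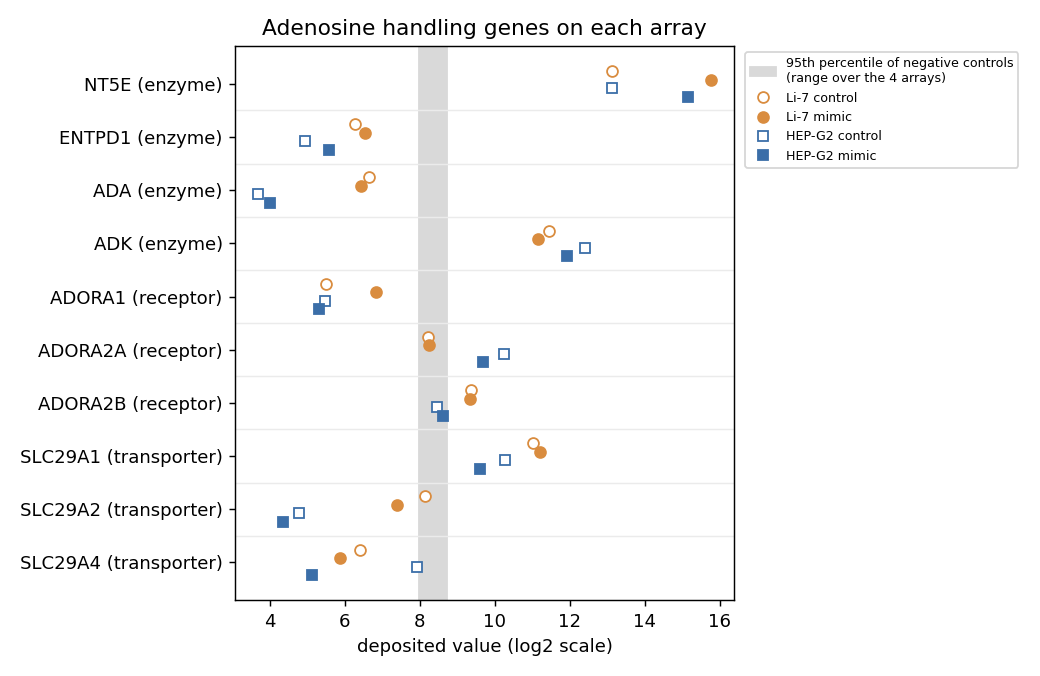
Deposited log2 value (horizontal axis) of each of the 10 adenosine handling genes on each of the 4 arrays, 1 point per array, with the range of the background line over the arrays (7.99 to 8.72) shaded. NT5E sits right of the shaded band on every array, with both mimic points right of both control points, while ENTPD1, ADA, ADORA1, SLC29A2 and SLC29A4 never pass the background line of their own array.

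The start of the NT5E gene is shown because this member had the largest mean difference over both lines. The window runs from 250 bases before to 50 bases after the annotated start, on the plus strand at chr6:85449833-85450132 (RefSeq, GRCh38.p14). Capitals mark TGACG, the shorter form of the cAMP response element, searched on both strands.
NT5E: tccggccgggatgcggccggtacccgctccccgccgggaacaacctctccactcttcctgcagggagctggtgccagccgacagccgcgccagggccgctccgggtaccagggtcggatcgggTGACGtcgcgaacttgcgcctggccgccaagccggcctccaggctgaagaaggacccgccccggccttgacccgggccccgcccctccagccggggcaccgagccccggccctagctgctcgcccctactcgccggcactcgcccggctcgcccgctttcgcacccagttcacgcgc
Of the 10 genes, 8 had such a window in the table, and TGACG occurred in 4 of them (NT5E, ENTPD1, ADK and ADORA2B). It occurred in 24.6% of all 35116 windows. Members are counted once per gene, whereas these shares count every window, also of genes not on the array. The complete element TGACGTCA, which contains the shorter one, was in 0 of the 8 and in 1.85% of all windows. The hypoxia element core ACGTG was in 1 (SLC29A1) against 21.4% of all, the AP-1 motif TGANTCA in 0 against 7.71%, and the GC box GGGCGG in 7, NT5E among them, against 45.0%. These matches describe letters only and show no binding.

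An enzyme upstream of NT5E had smaller differences in its readings. ENTPD1, which supplies AMP, went from 6.26 to 6.53 in Li-7 and from 4.94 to 5.57 in HEP-G2 between control and mimic. It differed by 0.26 in the first line and by 0.63 in the second. All 4 values lay under the background line, so the size of its change is not resolved. Between 10.8% (Li-7 mimic) and 37.9% (HEP-G2 control) of negative control probe sets were brighter.

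The enzymes that remove adenosine had small differences. ADK, adenosine kinase, went from 11.45 to 11.15 in Li-7 and from 12.40 to 11.92 in HEP-G2 between control and mimic, above background throughout. It was lower with the mimic in both lines, with differences of -0.30 (Li-7) and -0.49 (HEP-G2). ADA, adenosine deaminase, read 6.64 and 6.42 in Li-7, a difference of -0.22, and was under background on both arrays. In HEP-G2 it read 3.68 with the control and 4.0 with the mimic, a difference of 0.33. There 64.5% of negative controls on the control array and 55.4% on the mimic array were brighter than ADA, so its level is not resolved.

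None of the receptors was higher with the mimic in both lines. ADORA1, the receptor coupled to inhibitory G proteins, read 5.50 on the Li-7 control and 6.84 on the Li-7 mimic array. In HEP-G2 it read 5.47 and 5.30. Its difference of 1.34 in Li-7 (-0.17 in HEP-G2) was past 2-fold in that line, but both Li-7 values lay under background, with 23.4% and 9.15% of negative controls brighter. ADORA2A read 8.22 and 8.25 in Li-7 and 10.25 and 9.68 in HEP-G2, differences of 0.03 and -0.57, the Li-7 difference falling just under 0 when arrays were centred on their medians. The Li-7 control value of ADORA2A was under background and its other values above it. Its Li-7 readings were nearly equal, and the background line was lower on the mimic array (7.99) than on the control array (8.72). ADORA2B, the receptor that needs more adenosine than the others, read 9.37 and 9.33 in Li-7 and 8.46 and 8.62 in HEP-G2, above background on every array. In HEP-G2 it was close to that line, with 4.58% (control) and 4.90% (mimic) of negative controls brighter. Its differences were -0.04 in Li-7, above 0 after quantile normalization, and 0.16 in HEP-G2.

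The transporters were lower or little different with the mimic. SLC29A1 (ENT1), the main equilibrative transporter of many cells, read 11.01 and 11.20 in Li-7 and 10.27 and 9.61 in HEP-G2, all above background. Its difference was 0.18 in the first line and -0.66 in the second. SLC29A2 (ENT2) read 8.13 and 7.39 in Li-7 and 4.78 and 4.34 in HEP-G2, lower with the mimic in each line (-0.74 and -0.44). SLC29A4, the plasma membrane monoamine transporter, which also carries adenosine, read 6.40 and 5.88 in Li-7 and 7.92 and 5.12 in HEP-G2. Its HEP-G2 difference of -2.80 was the 10th lowest of 12381 genes there, against -0.53 in Li-7. Every SLC29A2 and SLC29A4 value was under the background line of its array, and 6.21% of negative controls were brighter than SLC29A4 in HEP-G2 control cells against 29.9% with the mimic. A size of change is uncertain where both values lie in that range.

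**Figure D2:**
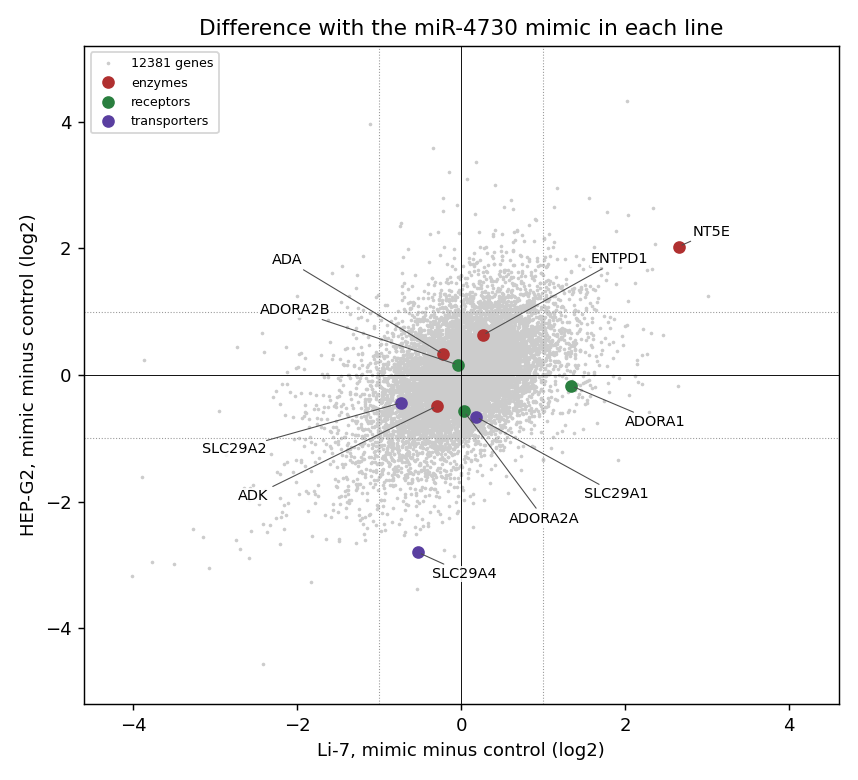
Mimic minus control in Li-7 (horizontal) against HEP-G2 (vertical), in log2 units, for 12381 genes (grey) with the 10 adenosine handling genes coloured by role and dotted lines at 2-fold. NT5E lies past 2-fold in both lines (2.65 and 2.03), ADORA1 only in Li-7 (1.34) and SLC29A4 only in HEP-G2 (-2.80), and the other 7 lie inside 2-fold in both.

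Of the 10 genes, 2 were at least 2-fold higher in Li-7 (NT5E and ADORA1), where 3.72% of the 12381 genes were, and 0 were at least 2-fold lower, against 4.12%. In HEP-G2 1 was at least 2-fold higher (NT5E), against 5.77% of all genes, and 1 at least 2-fold lower (SLC29A4), against 6.28%. NT5E was past 2-fold higher in both, as were 1.03% of genes. The sign was the same in both lines for 5 of the 10 and for 65.1% of all genes. The median of the mean difference was -0.09 over the 10 genes and 0.03 over all. The rule used this contrast, so nothing is read from these shares.

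The genes were next compared between the lines, a contrast that did not choose them. The line coefficient of the limma fit averages control and mimic arrays. Its spread combines 2 parts, neither from replicate cultures. The first is how far the mimic response of the gene differed between the lines (1 residual degree of freedom). The second, with more weight, is a value pooled over all genes tested (5.85 prior degrees of freedom). With Benjamini-Hochberg adjustment over 12381 genes, 7 of the 10 differed at an adjusted p under 0.05, 5 higher in Li-7 and 2 higher in HEP-G2. Over all genes 44.9% did (24.3% higher in Li-7 and 20.7% higher in HEP-G2), so a call between these lines is common. The summed log2 value of the 11 hepatocyte markers was 57.9 and 60.8 on the Li-7 arrays and 167.5 and 172.5 on the HEP-G2 arrays. The part of that difference in the values below was not tested.

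Among the enzymes, ADA read higher in Li-7 (2.69, SE 0.26, limma's adjusted p = 0.00023), as did ENTPD1 (1.14, SE 0.25, adjusted p = 0.0100). Both rest on values under background in both lines, so these are differences between readings and their size as RNA is not resolved. ADK was lower in Li-7 (-0.86, SE 0.25, adjusted p = 0.0273), a 1.82-fold difference on the deposited scale. NT5E did not pass (0.32, SE 0.27, adjusted p = 0.370), and the 95% interval ran from -0.32 to 0.97, which leaves room for a difference of up to nearly 2-fold in favour of Li-7.

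Among the receptors, ADORA2A was lower in Li-7 (-1.73, SE 0.27, adjusted p = 0.00200), both HEP-G2 arrays reading above both Li-7 arrays. ADORA2B differed the other way (0.81, SE 0.25, adjusted p = 0.0337), a 1.75-fold difference, and both Li-7 arrays read above both HEP-G2 arrays. That call was lost when arrays were centred on their medians (0.63, adjusted p = 0.0772; 0.0164 to 0.0772 over all alternatives), a scaling that moved the median line difference of all genes from 0.025 to -0.154. ADORA1 did not pass (0.78, SE 0.38, 95% interval -0.11 to 1.68, adjusted p = 0.136). Its control arrays read 5.50 and 5.47, and the Li-7 mimic array stood apart.

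Among the transporters, SLC29A2 read higher in Li-7 on both arrays (3.20, SE 0.25, adjusted p = 7.82e-05). All its values were under background, and 40.4% and 47.9% of negative controls were brighter on the HEP-G2 arrays, so the size of that difference is not resolved. SLC29A1 was also higher in Li-7 (1.16, SE 0.29, adjusted p = 0.0164), 2.23-fold on the deposited scale and above background on all arrays. SLC29A4 did not pass (-0.38, SE 0.50, 95% interval -1.56 to 0.80, adjusted p = 0.576). Li-7 read lower than HEP-G2 on the control arrays (-1.51) and higher on the mimic arrays (0.76). Calls for ADK and ADORA2B were lost when treatment was left out of the model (adjusted p = 0.0907 and 0.0697). Over all alternatives the adjusted p of ADK ran from 0.0102 to 0.0907.

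**Figure D3:**
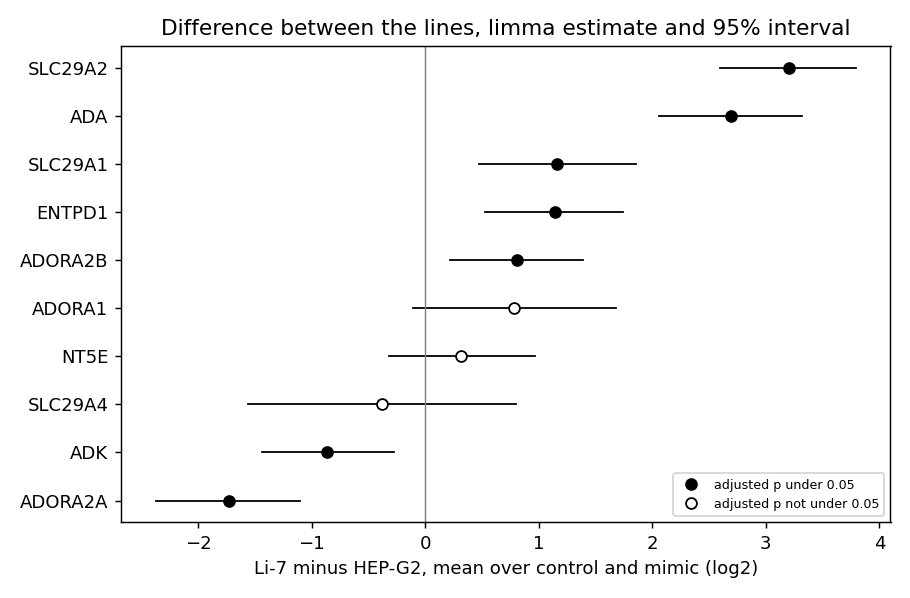
Li-7 minus HEP-G2 (log2, averaged over control and mimic arrays) for each of the 10 genes, with the limma estimate as a point and its 95% interval as a line; filled points passed an adjusted p of 0.05. SLC29A2 (3.20) and ADA (2.69), both read under background, lie farthest right, ADORA2A (-1.73) lies farthest left, and the intervals of NT5E, ADORA1 and SLC29A4 cross 0.

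Over the 4 arrays, the 5 genes nearest to NT5E among 12371 others, by Euclidean distance between values centred on each gene's mean, were IFRD1, an interferon-related developmental regulator (0.82), SAMTOR, a sensor of S-adenosylmethionine (0.88), DTNA, a dystrobrevin (0.89), RAB30, a small GTPase (0.94), and ITGAV, the integrin alpha V chain (0.99). The median distance was 2.61. Each read higher on both mimic arrays than on both control arrays, like NT5E. That order follows from choosing them by nearness to NT5E and is no separate result. Their mimic differences ran from 1.48 (ITGAV) to 1.78 (DTNA) in Li-7 and from 1.34 (RAB30) to 2.58 (DTNA) in HEP-G2. IFRD1 and ITGAV were above background on all 4 arrays, SAMTOR and RAB30 on the mimic arrays alone, and DTNA on none. The other members lay farther from NT5E than any of these, from 1.87 (ADORA1) to 4.15 (SLC29A4). With 4 arrays, such a likeness describes the values and no more.

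**Figure D4:**
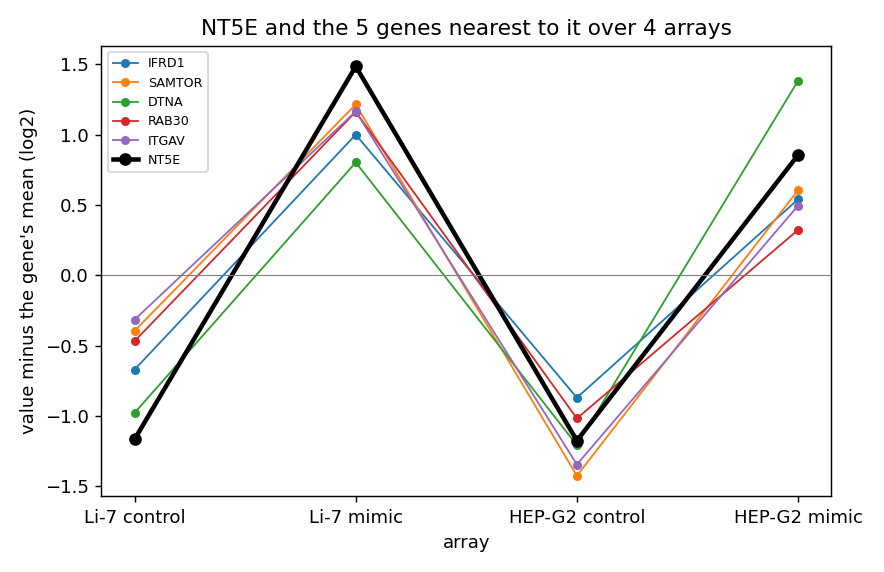
Value minus the gene's own mean over the 4 arrays (log2, vertical axis) for NT5E (black) and the 5 genes nearest to it, on each array (horizontal axis). All 6 lines are above 0 on the mimic arrays and below 0 on the control arrays, the 5 genes having been chosen by nearness to NT5E.

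Around the 10 genes, 9 lists of purine pathway genes held 128 genes, of which 113 had a probe set and 81 were bright enough to be tested; the remainder was not analysed here. In the common mimic response, the limma coefficient of treatment with line in the model, 0 of the 81 passed at an adjusted p of 0.05, against 0.42% of all genes (52 of 12381, with 0.0808% called higher and 0.339% called lower; 80.8% of them lower, but 58.6% lower of 447 after quantile normalization). At an unadjusted p under 0.05, 10 were lower (12.3%) and 4 higher (4.94%), against 9.71% and 9.75% of all genes. The median mean change was -0.06 over the 81 and 0.03 over all genes. The lowest adjusted p was that of PRKACA, the catalytic alpha subunit of protein kinase A, which acts below the adenosine receptors. It went from 10.77 to 8.56 in Li-7 and from 10.80 to 9.24 in HEP-G2 between control and mimic, so both mimic arrays were below both control arrays. Its mean change of -1.89 (SE 0.27, adjusted p = 0.0520) missed the threshold and passed it with an intensity trend in eBayes (adjusted p = 0.0158), after quantile normalization (adjusted p = 0.0113) and with each other filter (adjusted p = 0.00727 to 0.0493). Over all alternatives its adjusted p ran from 0.00727 to 1, the latter with line left out of the model.

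Of 18 tested genes of cAMP signalling, 11 had a positive and 7 a negative mean change (median 0.22), where 52.6% of all genes were positive. ADCY9, an adenylyl cyclase, stood at -0.99 (adjusted p = 0.131, under background on both Li-7 arrays). Of 7 genes in the cAMP response list, which includes coactivators of CREB, 3 were positive and 4 negative (median -0.13). CRTC2, a coactivator of CREB, stood at -1.16 (adjusted p = 0.0893) and SIK1, a kinase of that response, at 0.49 (adjusted p = 0.320). Of the 7, 0 lay above background on all 4 arrays, against 5552 of all 12381 genes tested. On no array did 3 of them, SIK1 included, against 3884 of the 12381. De novo purine synthesis had a median of -0.30, with 11 of 12 genes negative, against 47.4% of all genes tested. PRPS2, which makes the ribose phosphate donor, stood at -1.78 (adjusted p = 0.0792), and PFAS, a step of ring building, at -1.16 (adjusted p = 0.0907). In the S-adenosylhomocysteine cycle, where AHCY frees adenosine inside cells, the median was -0.29 over 6 genes, AHCY stood at -1.14 (adjusted p = 0.104) and MAT2A, which makes S-adenosylmethionine, at -0.69 (adjusted p = 0.225).

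Intracellular AMP turnover had a median of 0.05 over 12 genes, with the AMP deaminases at opposite ends, AMPD3 at 1.16 (adjusted p = 0.0989, under background on all arrays) and AMPD2 at -1.07 (adjusted p = 0.142). The list labelled extracellular nucleotide hydrolysis had a median of -0.07 over 10 genes. Not all of them share the step of ENTPD1, and the label does not hold for every gene, such as ENTPD5 and DPP4. In that list ENTPD5 stood at -0.58 (adjusted p = 0.438, under background on all arrays). DPP4, a surface protein that binds ADA, stood at 0.43 (adjusted p = 0.535). Over 6 salvage genes the median was -0.06, with HPRT1 at -0.79 (adjusted p = 0.162) and PNP at 0.55 (adjusted p = 0.313). It was 0.24 over 6 other transporters. Among these SLC17A9, which loads ATP into vesicles, stood at -0.90 (adjusted p = 0.181, under background on both Li-7 arrays). ABCC4, an exporter, stood at 0.67 (adjusted p = 0.232). For 4 other purine receptors the median was -0.07. P2RY6 stood at -0.33 (adjusted p = 0.521, under background on both Li-7 arrays) and P2RY2 at -0.28 (adjusted p = 0.629, under background on all arrays).

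**Figure D5:**
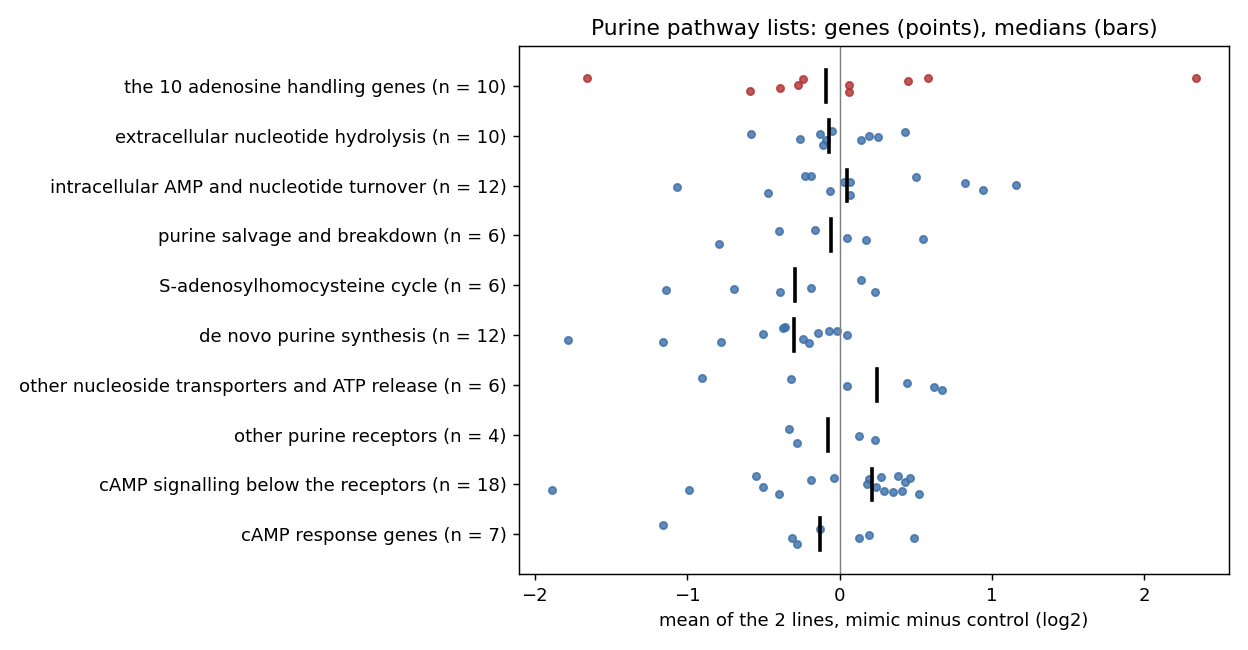
Mean of both lines, mimic minus control (log2, horizontal axis), for the 10 adenosine handling genes (red) and the tested genes of each purine pathway list (blue), 1 point per gene, with list medians as bars. NT5E is the red point at 2.34 and SLC29A4 the one at -1.66, and the list medians lie between -0.30 and 0.24.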

How the data were processed

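The deposited table holds 1 value per probe set and array, read here as log2 because the values ran from 1.48 to 18.31 with like medians (7.03 to 7.17). Per the submitters' processing notes, the Transcriptome Analysis Console and Affymetrix Expression Console were used. How values were normalized or background-corrected, and in which log base, is not stated there, so folds hold on the deposited scale. Of the probe sets, 17709 had 1 gene in the platform annotation, all matched to RefSeq by Entrez identifier. The brightest stood for a gene (20 genes had several).

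Values were fitted in R 4.3.3 with limma 3.58.1 (lmFit, eBayes) on line and treatment, with 1 residual degree of freedom per gene, over 12381 genes, adjusted by Benjamini-Hochberg. On simulated data of that size with 200 genes changed, 12.2% of line differences of 1 log2 unit were recovered. Of those of 2 log2 units 93.5% were, with 10.1% of calls false. For the mimic response these were 10.8%, 92.0% and 11.4%. In the data 5563 genes (44.9%) passed the line test, far more than the simulation changed. The adjustment is looser there, so the simulated line shares do not describe that test. Precision is limited by the number of arrays.

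The members, lists and tests were chosen with earlier results of these data known. Named were all members, HMGA1, the 5 genes nearest to NT5E, and from each list every gene that passed, the 2 largest mean changes and the 2 largest line differences that passed. Marker genes came from the fixed marker lists and were named after their values were seen. Alternatives were 3 normalizations, 3 filters, averaged probe sets, an intensity trend or robust fitting in eBayes, and a model with the tested factor alone.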

Additional observations from a re-analysis of the deposited data

Results flagged for a closer look

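Several genes moved in opposite directions with the mimic in the lines. With 1 array per group these differences between the lines were not tested. Given as the Li-7 response minus the HEP-G2 response on the log2 scale, the value among the members was 1.51 for ADORA1 (1.34 in Li-7 and -0.17 in HEP-G2), 0.85 for SLC29A1 (0.18 and -0.66), 0.59 for ADORA2A (0.03 and -0.57), -0.54 for ADA (-0.22 and 0.33) and -0.20 for ADORA2B (-0.04 and 0.16). ADORA1 and ADA lay under background on every array, and the Li-7 signs of ADORA2A and ADORA2B each turned under 1 normalization.

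Among the pathway genes named, the value was -1.46 for ENTPD5 (-1.31 and 0.15), -1.24 for DPP4 (-0.19 and 1.05), -0.69 for P2RY2 (-0.63 and 0.06) and -0.65 for GDA, guanine deaminase (-0.28 and 0.37). It was 0.86 for MAT1A (0.24 and -0.62), 0.35 for ENPP3 (0.06 and -0.29), -0.30 for PPARGC1A (-0.28 and 0.02) and 0.15 for ENPP4 (0.03 and -0.12). ENTPD5 and P2RY2 were under background on all 4 arrays, and GDA, MAT1A, ENPP3 and PPARGC1A on both arrays of 1 line. ENPP4 was above it on the Li-7 mimic array alone, where the background line was lowest.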

How the results depend on the processing

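NT5E stayed between 2.62 and 2.71 in Li-7 and between 2.03 and 2.17 in HEP-G2 under all 3 normalizations and with probe sets averaged, and the counts of members past 2-fold did not change. Pathway genes lower with the mimic numbered 4 after quantile normalization, with a filter at the median gene and with an intensity trend, 6 with a filter at the negative controls and 1 with no filter, against 0. Higher ones numbered 1 after quantile normalization and 1 with the filter at the negative controls, against 0. Mimic calls over all genes, in either direction, also rose in number in these settings. They were 447 of 12372 after quantile normalization, 366 of 8844 with the filter at the median gene and 411 of 12381 with an intensity trend. With the filter at the negative controls they were 582 of 6948, and with no filter 59 of 17687, against 52 of 12381. Nothing particular to the purine genes is read from these counts. Members higher in Li-7 numbered 2, against 5, with each stricter filter, which leaves dim members untested, and members higher in HEP-G2 numbered 1, against 2, with treatment left out of the model. Pathway genes higher in Li-7 numbered 13, against 23, with the filter at the negative controls, which tests 6948 genes. Of 508 other comparisons with an alternative, for single members and named pathway genes, 482 kept their side of the threshold or stayed within the spread, 20 became calls and 6 lost one, and 0 reversed. For the changed counts without a stated reason the cause was not tested. Signals under background limit 5 of the 10 genes on every array. The same held for 3884 of all 12381 genes tested, so nothing particular to the members is read from that count.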

Other observations

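Of the 81 purine genes tested around the members, 43 (53.1%) passed limma's line test at an adjusted p under 0.05, 23 higher in Li-7 and 20 higher in HEP-G2, against 44.9% of all genes, so nothing particular to these lists is read from the count. The genes given next are named ones above background on all 4 arrays. MAT2A, a methionine adenosyltransferase of non-hepatic and growing cells, was higher in Li-7 (2.16, SE 0.27, limma's adjusted p = 0.000683). So were GNAI1, an inhibitory G protein subunit (3.24, adjusted p = 7.55e-05), PRPS2 (3.16), IMPDH2 (2.26) and HPRT1 (1.33). SLC29A3, the lysosomal and mitochondrial member of the SLC29 family (-2.84), was lower there. DPP4, the surface protein that binds ADA, was lower too (-4.03), but was named for its mimic change. Genes that the rule did not name also differed, such as ENPP1 (-4.68), above background on all 4 arrays. The HPRT1 call was lost with treatment left out of the model (adjusted p = 0.0599; 0.00125 to 0.0599 over all alternatives).

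The other genes named by the rule passed with values under background on at least 1 array, so their differences, Li-7 minus HEP-G2, have an uncertain size. Under background on both Li-7 arrays were MAT1A, the liver form of methionine adenosyltransferase (-10.93), ENPP3, a nucleotide pyrophosphatase (-7.03), AK4, a mitochondrial adenylate kinase (-6.81), PPARGC1A, a coactivator induced by cAMP in liver (-6.44), SLC17A9 (-4.05) and P2RY6 (-2.54). GDA, which deaminates guanine (8.39), was under it on both HEP-G2 arrays. ENPP4 (4.95) and AK5 (2.74) were above it on the Li-7 mimic array alone, where the background line was lowest, and P2RY2 (2.22) on no array. PRKACB (4.32) was under it on the HEP-G2 control array and CRTC2 (0.90) on the HEP-G2 mimic array. The CRTC2 call was lost with treatment left out (adjusted p = 0.272) and with arrays centred on their medians (adjusted p = 0.0501), and its adjusted p ran from 0.00989 to 0.272 over all alternatives. Line and medium cannot be told apart in any of these.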
